A study of Mus musculus with 6 samples.

Results

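The ribosomal protein pseudogenes with signal were chosen among the rows of the expression files by name and level. The symbol had to be Rpl, Rps or Rplp, a number and any further letters or digits, followed by "-ps". The row also had to reach at least 1 FPKM in at least 3 of the 6 libraries. Copies of Rpsa, a ribosomal protein gene without a number in its name, fall outside this name pattern. FPKM is the number of sequenced fragments scaled to gene length and library depth, so it is a level per length. Of 297 rows with such a name, among 55335 rows in all, 116 were members and 181 were not. The members were chosen by their level, so their levels are described here and not tested. The libraries came from mouse embryos at the 4-cell stage, 3 from the DRB group and 3 from the Con group, and the study asked how a period without transcription changes the transcriptome afterwards. Zygotes of the DRB group were placed, 6 h after fertilization, in KSOM (an embryo culture medium) containing 20 µM DRB (a benzimidazole riboside that blocks transcription elongation), were washed free of it after 20 h, and were then kept for 26 h in fresh KSOM. The labels call the reference embryos Con and record neither a vehicle nor a culture schedule for them, nor the strain or the number of embryos in a library. No source says that the 3 libraries of a group came from separate matings, so the p-values below measure the spread between these libraries, which may be technical.

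A processed pseudogene is a copy of a messenger RNA that was reverse transcribed and inserted elsewhere in the genome, usually without introns and without the promoter of its parent gene. Genes for ribosomal proteins, which build the large (Rpl) and small (Rps) subunits of the ribosome, are short and highly expressed, and they have left many such copies in mammalian genomes. Because a young copy differs from its parent at few bases, many sequenced fragments match both, and a value listed for the pseudogene can then hold fragments of the parent's messenger RNA or of another copy. In the mouse embryo, the messenger RNA stored in the egg is degraded during the first divisions while transcription of the embryonic genome starts, the major part of it in the 2-cell embryo.

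The values were read together with how far each pseudogene can be told from other genes. Each member was cut into all overlapping windows of 150 bases, the read length, and a window was counted as the pseudogene's own where no transcript of another gene in the annotation (GENCODE release M21) holds it. Every window was its own in 29 members, some windows were in 68, and none was in 19. Over the members a median of 71.9% of windows were their own, and 79 of 116 members shared at least 1 window with the parent. Among the other 181 rows of the name pattern the median was 100% and 12 rows shared a window with the parent. No source used here says how reads that match several genes were assigned.

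The sequences of both pseudogenes that passed the test between the groups, of the member with the highest level and of 4 members with identical values are shown beside their parents' coding sequence, to show how much distinguishes them. Capitals mark the bases at which pseudogene and parent differ. Rps24-ps3 (ENSMUSG00000081049.1), at chrX:79195047-79195448 on the plus strand of mm10, is an intronless processed pseudogene of 402 bases that overlaps no other annotated gene. It begins at the parent's start codon, ends at its stop codon and differs from it by C207T, G273C, G360T and C380T, where positions are counted from 1 at the pseudogene's first base, the parent's base comes first and the pseudogene's base last. Bases 201 to 386 hold all 4 differences and lie at chrX:79195247-79195432. Rps24 lies at chr14:24487125-24496959 on the plus strand, and the same positions of its coding sequence are given.
Rps24-ps3: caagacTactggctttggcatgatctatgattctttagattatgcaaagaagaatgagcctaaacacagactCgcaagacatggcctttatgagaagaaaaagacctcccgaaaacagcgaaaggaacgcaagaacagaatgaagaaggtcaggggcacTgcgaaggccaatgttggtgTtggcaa
Rps24: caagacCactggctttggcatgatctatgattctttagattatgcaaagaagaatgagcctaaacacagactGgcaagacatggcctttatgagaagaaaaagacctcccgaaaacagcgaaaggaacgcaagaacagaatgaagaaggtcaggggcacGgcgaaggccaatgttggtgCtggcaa
With 4 differences, 77.5% of the windows of Rps24-ps3 were its own, and its reading frame of 133 codons was as long as the parent's.

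Rpl23a-ps4 (ENSMUSG00000081445.1), at chr2:132662242-132662696 on the plus strand, is a processed pseudogene of 455 bases that also overlaps no other annotated gene. It was 89.4% identical to Rpl23a, with 32 mismatches besides gaps, and a stop codon ends its frame after 76 of the 156 codons of the parent. Bases 257 to 426, at chr2:132662498-132662667, hold 12 of the differences and are set beside bases 273 to 442 of the coding sequence of Rpl23a, which lies at chr11:78180932-78183584 on the minus strand.
Rpl23a-ps4: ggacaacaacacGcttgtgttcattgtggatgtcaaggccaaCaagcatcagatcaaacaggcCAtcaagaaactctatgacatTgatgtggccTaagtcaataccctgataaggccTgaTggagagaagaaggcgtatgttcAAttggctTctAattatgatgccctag
Rpl23a: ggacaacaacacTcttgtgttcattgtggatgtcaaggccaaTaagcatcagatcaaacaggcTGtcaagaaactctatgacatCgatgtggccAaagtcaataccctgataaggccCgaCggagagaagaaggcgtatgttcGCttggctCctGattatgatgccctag
Every 150-base window of Rpl23a-ps4 was its own, so a fragment read without error would match it better than any other annotated transcript.

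Rpl34-ps1, at chr6:71124610-71124963 on the plus strand, has 354 bases and differs from Rpl34 (chr3:130726831-130730398, minus strand) by T132C and C318G. Bases 101 to 160, at chr6:71124710-71124769, show the first of these differences.
Rpl34-ps1: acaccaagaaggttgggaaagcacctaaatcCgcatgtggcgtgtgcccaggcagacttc
Rpl34: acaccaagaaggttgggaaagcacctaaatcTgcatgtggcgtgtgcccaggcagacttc
Rpl35a-ps2, -ps3, -ps4 and -ps6 lie on chromosomes 1, 17, 2 and 5 and have the same 333-base sequence, which differs from the coding sequence of Rpl35a (chr16:33056453-33060189, plus strand) by G156A. Bases 121 to 190 of Rpl35a-ps2, at chr1:181242131-181242200 on the minus strand, hold it.
Rpl35a-ps2: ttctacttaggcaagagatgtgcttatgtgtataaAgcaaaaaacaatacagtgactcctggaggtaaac
Rpl35a: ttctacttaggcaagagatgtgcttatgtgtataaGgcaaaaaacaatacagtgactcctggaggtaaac

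The steps between low FPKM values put the depth at about 22300000 to 24900000 fragments assigned to genes in the DRB libraries and 21600000 to 22800000 in the Con libraries. Of the lowest values, 74.1% to 78.8% per library came within 0.15 of a whole number of fragments. The depths, and the gene length used with them, were chosen to make this share highest, so it does not check them. Part of any evenly spread values would also come that near a whole number, here and in the next counts. Among values of under 10 fragments in rows of the name pattern, 136 of 233 (58.4%) were near whole where every window is the row's own, 28 of 90 (31.1%) where at least 50% but not all are, and 1 of 22 (4.5%) where fewer are. Pearson correlations of log2(FPKM + 1) over the 11893 tested genes were 0.909 to 0.937 within DRB, 0.935 to 0.944 within Con and 0.869 to 0.915 between the groups. The 8 genes listed as cleavage embryo markers, which include the egg-coat gene Zp3 as well as Nr5a2, were above 0 in all libraries. They summed to 107.6 to 158.6 FPKM in DRB and 161.0 to 197.2 FPKM in Con, and the list does not separate RNA stored in the egg from RNA made by the embryo. Of 6 cumulus cell markers, Inha, Has2 and Cyp19a1 were at 0 in all libraries and Foxl2 reached 0.1 FPKM in 1 Con library. The sum of the 6 was 143.7 to 275.7 FPKM in DRB and 213.0 to 387.1 FPKM in Con, and came almost wholly from Gja1 and Amhr2. The 6 sperm markers summed to 12.3 to 24.2 FPKM in DRB and 12.7 to 22.7 FPKM in Con, mostly from Odf2 and Ldhc. Prm1, Prm2, Tnp1 and Odf1 were at no more than 1.08 FPKM in any library. The 6 blood markers summed to 59.3 to 99.8 FPKM in DRB and 77.1 to 123.4 FPKM in Con. None of the tested markers, 8, 2, 2 and 4 in the 4 lists, passed the adjusted threshold in limma, and 1 gene of the embryo list had an unadjusted p below 0.05. The part of these differences in the results was not tested. In these bulk libraries, fewer cells of a type and less RNA per cell cannot be told apart.

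Summed over the 116 members, the pseudogenes held 5456.6, 7996.1 and 7294.9 FPKM in DRB replicates 1 to 3, against 10226.4, 9258.0 and 8845.4 FPKM in Con replicates 1 to 3. As a share of all FPKM this was 0.527%, 0.672% and 0.580% in DRB and 0.881%, 0.787% and 0.811% in Con, so that the groups did not overlap. Set against the summed FPKM of the 79 ribosomal protein genes, the members came to 5.25%, 6.13% and 4.98% in DRB and 6.11%, 5.74% and 6.26% in Con, where the groups overlapped. The mitochondrial share of all FPKM was 25.7%, 23.9% and 26.4% in DRB against 12.2%, 18.7% and 20.0% in Con, without overlap either. Its part in the members' share was not tested.

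Levels among the members spanned a wide range. The mean over the 6 libraries was at least 100 FPKM in 23 members, from 10 to 100 FPKM in 31 and under 10 FPKM in 62, and the median member had 8.11 FPKM. In 87 members the 1 FPKM minimum was met in all 6 libraries, in 13 it was met in 5, in 7 in 4 and in 9 in 3. The 116 members came from 46 parent genes, 70 from the large and 46 from the small subunit. Rpl31 had the most members, 8 of its 24 rows, followed by Rps19 with 7 of 14, while 16 parents had a single member. The rows outside the rule were at 0 in every library in 68 cases, above 0 somewhere in 113, and at 1 FPKM or more in 1 or 2 libraries in 23 of those. Members held 98.3% to 99.8% of the FPKM of all 297 rows in each library.

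Members resembled their parents closely, a property the rule did not use. Identity to the parent transcript could be given for 114 members, in which at least 50% of the pseudogene aligned, and had a median of 98.9%. For 175 of the other rows the median was 92.3%. The share of rows with signal was 11 of 126 (8.73%) below 95% identity, 16 of 65 (24.6%) from 95% to under 98%, 34 of 41 (82.9%) from 98% to under 99%, 21 of 23 (91.3%) from 99% to under 99.5%, and 32 of 34 (94.1%) from 99.5% up. The median mean level in the same order was 1.98, 3.55, 3.93, 12.2 and 72.3 FPKM, and Spearman's rho between mean FPKM and identity was 0.605 across the 114 members. Members share parents and fragments and are not independent points, so no p is given. In the same order of classes, the median share of a member's own windows was 100%, 98.99%, 84.4%, 62.0% and 2.26%, so the level was highest where the fewest bases separate the pseudogene from other genes.

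**Figure D1:**
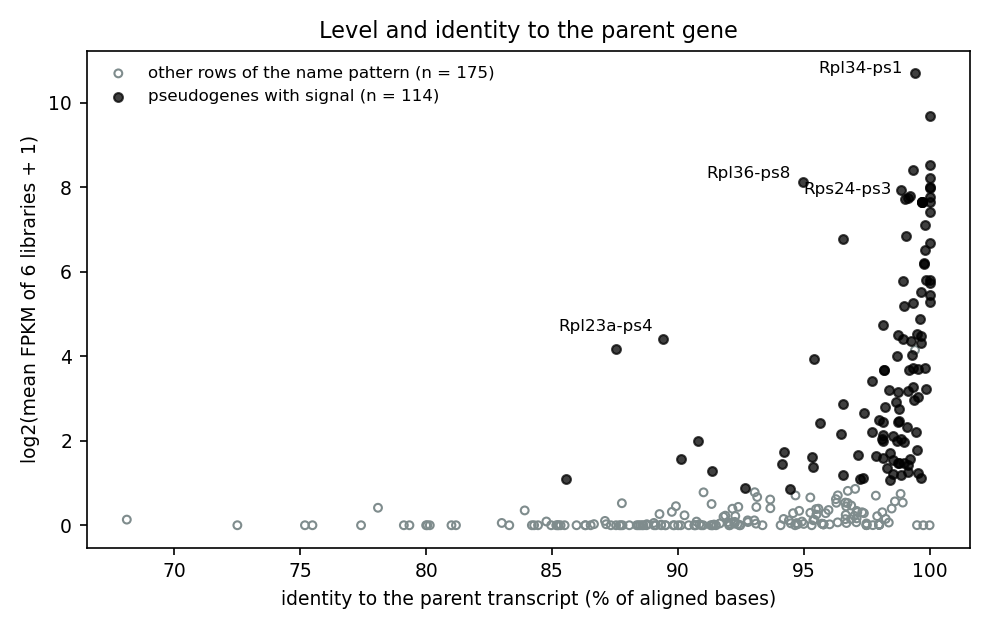
Mean level of the 6 libraries, as log2(FPKM + 1), against identity to the parent transcript in percent, for 114 pseudogenes with signal (filled) and 175 other rows of the name pattern (open). Filled points crowd to the right, where 32 of 34 rows at 99.5% identity or more had signal, against 11 of 126 below 95%.

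Of the 181 rows outside the rule, 4 had 99% identity or more. Rpl10-ps1, with the same aligned sequence as Rpl10 and no window of its own, and Rpl7a-ps11 were at 0 in all 6 libraries, and Rps12-ps9 reached 0.01 FPKM in DRB replicate 3 and was at 0 elsewhere. The fourth, Rpl30-ps9, 99.4% identical to Rpl30, was listed at 100.11 FPKM in DRB replicate 3 and at 0 in the other 5 libraries. Rpl10-ps3, which is likewise 100% identical to Rpl10 over the aligned bases, was listed at 109.9, 62.2 and 103.0 FPKM in DRB and 179.0, 56.8 and 94.1 FPKM in Con. Copies with equal identity to one parent were thus listed at very different levels. These rows were chosen after their values were seen.

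Most members looked like processed copies in the annotation. It lists 108 as processed pseudogenes, 4 as transcribed processed pseudogenes and 4 (Rpl10-ps3, Rpl9-ps6, Rps12-ps3 and Rpl36a-ps1) as protein-coding genes, and 112 of 116 have 1 exon. A reading frame as long as the parent's is present in 61 members, an earlier stop in 22, and no start codon at the aligned position in 10. In 21 the annotated sequence ends before a stop, and 2 aligned over too little of their length to be read. The share of rows with signal was 61 of 97 (62.9%) for full frames, against 22 of 93 (23.7%) for an earlier stop and 10 of 54 (18.5%) without a start. Full-frame members were also the closer copies, with a median identity of 99.3% against 97.8% for members with an earlier stop. Another annotated gene contains 46 members, 43 of them in an intron and 3 in an exon.

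The 8 members with the highest mean FPKM were mostly copies with few or no bases of their own. Rpl34-ps1, a copy of the gene for a large-subunit protein, had 1176.3, 1646.1 and 1242.1 FPKM in DRB, compared with 1485.7, 2242.2 and 2116.3 FPKM in Con. Rpl34 itself had 535.9, 1244.9 and 1495.8 FPKM in DRB and 1834.8, 1533.0 and 884.3 FPKM in Con. The pseudogene was thus listed above its parent in DRB replicates 1 and 2 and Con replicates 2 and 3, and below it in DRB replicate 3 and Con replicate 1. The sum of both rows was 1712.1, 2891.0 and 2737.9 FPKM in DRB and 3320.5, 3775.2 and 3000.6 FPKM in Con, and the pseudogene's part of that sum was 45.4% to 68.7% in DRB and 44.7% to 70.5% in Con. This split varied as widely within each group as between them. Rpl34-ps1 has 40.5% of its windows to itself, shares 17.6% with Rpl34 and 42.0% with the pseudogene Gm10154, which was listed at 13.6 to 18.4 FPKM in DRB and 16.99 to 21.7 FPKM in Con.

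Rpl38-ps2, Rpl31-ps8, Rps6-ps4, Rps23-ps1 and Rps16-ps2 are 100% identical to their parents over the aligned bases and have no window of their own. Rpl38-ps2 was listed at 406.9, 837.4 and 857.1 FPKM in DRB and 1118.5, 937.9 and 801.6 FPKM in Con, which was 18.1% of the mean of Rpl38 in DRB and 21.1% in Con. Rpl31-ps8 was listed at 166.5, 338.0 and 298.4 FPKM in DRB, below all of the 527.3, 404.7 and 467.6 FPKM in Con. Rpl31 was lower in every DRB library too, at 916.8, 1305.4 and 1341.6 FPKM in DRB, compared with 1562.4, 1937.1 and 1803.4 FPKM in Con. Rps6-ps4 had 299.2, 219.3 and 224.0 FPKM in DRB, compared with 363.9, 308.6 and 352.8 FPKM in Con, and Rps16-ps2 had 135.0, 205.6 and 249.7 FPKM in DRB, compared with 350.6, 314.6 and 253.9 FPKM in Con. In both the groups did not overlap, yet the limma adjusted p-values were 0.347 and 0.254. Rps23-ps1, which overlaps an exon of Gm5148 on the other strand, had 149.8, 254.6 and 226.2 FPKM in DRB and 409.3, 251.2 and 247.8 FPKM in Con.

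Like Rpl34-ps1, both remaining members of these 8 shared more windows with another pseudogene than with their parent. Rpl36-ps8 (chr4:116839907-116840221, minus strand) is 94.97% identical to Rpl36 and shares no window with it, but shares 82.5% of its windows with the pseudogene Gm5745. It was listed at 147.2, 463.5 and 245.7 FPKM in DRB and 306.3, 182.7 and 324.6 FPKM in Con, while Gm5745 was listed at 427.9, 256.9 and 524.6 FPKM in DRB and 818.7, 1326.6 and 298.0 FPKM in Con. In each group the library with the highest value of Rpl36-ps8 had the lowest value of Gm5745, and the part of Rpl36-ps8 in their sum was 25.6% to 64.3% in DRB and 12.1% to 52.1% in Con. Rps2-ps10, annotated in an intron of Pde6a, had 82.9, 434.3 and 209.5 FPKM in DRB and 603.2, 290.5 and 411.9 FPKM in Con, and 61.2% of its windows also occur in Rps2-ps13. Relative to the parent's mean, the highest levels were those of Rpl34-ps1 (124.1% in DRB and 137.4% in Con), Rps2-ps10 (53.2% in DRB and 63.0% in Con), Rpl36-ps8 (52.9% in DRB and 27.7% in Con) and Rps2-ps13 (49.3% in DRB and 30.8% in Con). None of the 8 passed the adjusted threshold between DRB and Con.

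**Figure D2:**
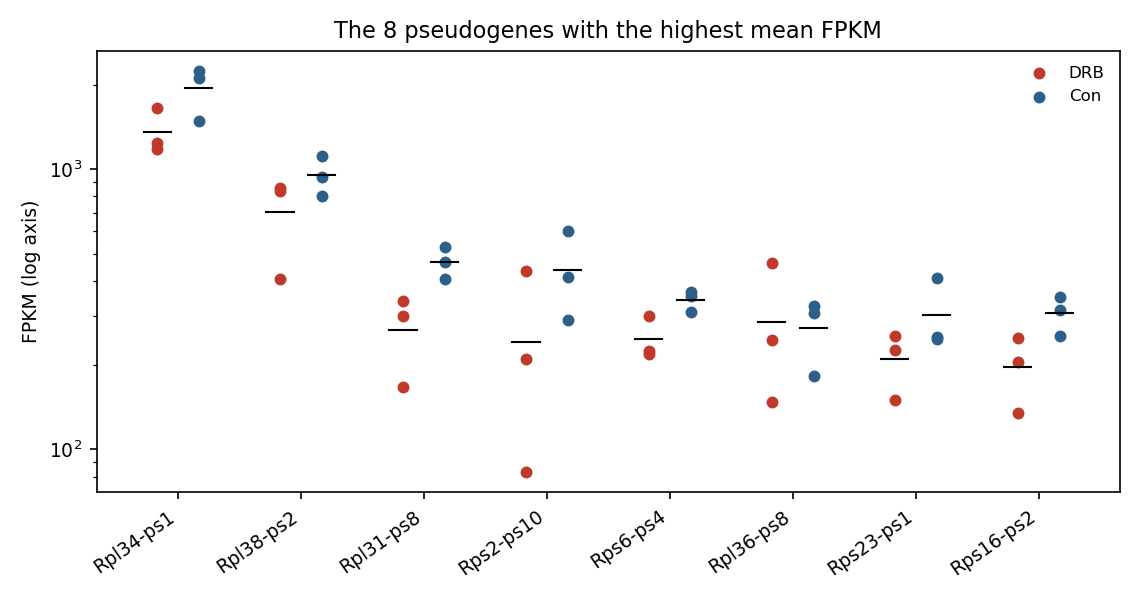
FPKM on a log axis in each DRB library (red) and Con library (blue) for the 8 pseudogenes with the highest mean, with a line at each group's mean. Rpl34-ps1 lies between 1176.3 and 2242.2 FPKM in the 6 libraries, and the groups stand apart for Rpl31-ps8, Rps6-ps4 and Rps16-ps2.

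Identical copies received identical values. Rpl35a-ps2, -ps3, -ps4 and -ps6, whose shared sequence is shown above, were each listed at 169.5, 265.2 and 174.1 FPKM in DRB and 127.2, 255.2 and 199.7 FPKM in Con. The same held for Rps19-ps1 and Rps19-ps2, each at 2.37, 7.20 and 10.2 FPKM in DRB, compared with 19.6, 16.7 and 15.1 FPKM in Con, a difference in which the groups did not overlap but the limma adjusted p was 0.137. These 6 rows hold 2 distinct sets of values, and with such rows counted once the members number 112. They were singled out after their values were seen.

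Between the groups, 2 of the 116 pseudogenes passed the test. It was limma on log2(FPKM + 1) with Benjamini-Hochberg adjustment over all 11893 genes that met the same minimum, at an adjusted p below 0.05. Over all tested genes 2.48% passed, 1.53% higher in DRB and 0.95% lower. At an unadjusted p below 0.05 there were 15 members, beside 18.1% of all genes. All 116 members entered the test, and 1 of them, Rpl30-ps8, met the minimum in the Con libraries alone.

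Rps24-ps3 fell in DRB. Its parent encodes a protein of the small subunit that takes part in the processing of ribosomal RNA. The pseudogene was listed at 71.9, 22.3 and 26.6 FPKM in DRB, compared with 337.0, 390.9 and 415.4 FPKM in Con. The highest DRB library was far below the lowest Con library. The means were 40.3 ± 27.5 FPKM in DRB and 381.1 ± 40.1 FPKM in Con (SD, n = 3 each), and limma gave a log2 fold change of -3.40 with an SE of 0.40 (limma adjusted p = 0.00254). In fragments, the values correspond to about 400, 121 and 160 in DRB and 1786, 2157 and 2171 in Con. The fall was called in each of the 6 fits that left out 1 library, with log2 fold changes of -3.91 to -3.09.

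Rps24 did not pass the test. It had 2028.2, 2107.5 and 2376.3 FPKM in DRB and 2731.8, 2676.9 and 2569.2 FPKM in Con. Every DRB library was thus below every Con library, as in 13.9% of all tested genes. The change was -0.30 on the log2 scale (SE 0.24, limma adjusted p = 0.561). Rps24-ps3 thus stood at 1.86% of its parent's mean in DRB and 14.3% in Con. The difference between pseudogene and parent on the log2 scale was itself tested with limma over 199 pairs of a "-ps" row and its parent, all pairs in which both met the minimum, of which 1.01% were called. For Rps24-ps3 it was -3.10 (SE 0.47, limma adjusted p = 0.0381). The call was kept without DRB replicate 1 (-3.66, limma adjusted p = 0.000900) and lost in the 5 fits without any other single library, where the difference was -3.21 to -2.81 and the limma adjusted p 0.0750 to 0.238. Of all windows of Rps24-ps3, 22.5% also occur in Rps24 and up to 8.70% in each of the pseudogenes Gm8942, Gm9320 and Gm11878, none of which was listed above 8.28 FPKM in any library. The nearest annotated genes are distant. Downstream, the near end of Gm7173, a gene on the minus strand, lies 71111 bases away. Gm7173 was listed at 1.31, 1.83 and 1.63 FPKM in DRB and 0.59, 1.35 and 0.63 FPKM in Con. Upstream, the processed pseudogene Gm14751 lies 186079 bases away and was at 0 in every library.

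Rpl23a-ps4 rose in DRB. Its parent encodes a large-subunit protein that lies near the exit of the nascent peptide tunnel. It was listed at 76.0, 20.8 and 16.2 FPKM in DRB, compared with 5.03, 2.67 and 0.16 FPKM in Con. The lowest DRB library was above the highest Con library, and DRB replicate 1 was the highest by far. The means were 37.6 ± 33.3 FPKM in DRB and 2.62 ± 2.44 FPKM in Con (SD, n = 3 each), a change of 3.38 on the log2 scale (SE 0.68, limma adjusted p = 0.0287). The values correspond to about 516, 137 and 119 fragments in DRB and 32.5, 18 and 1 in Con. Without DRB replicate 1, Con replicate 2 or Con replicate 3 the rise was no longer called, with log2 fold changes of 2.71, 3.53 and 2.70 and limma adjusted p-values of 0.105, 0.0573 and 0.0716.

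Rpl23a had 1760.3, 2121.5 and 2478.4 FPKM in DRB and 2424.3, 3140.0 and 2390.9 FPKM in Con, with a log2 fold change of -0.33 (limma adjusted p = 0.560). The pseudogene minus parent difference of 3.70 (SE 0.84) was not called (limma adjusted p = 0.185). The nearest annotated gene upstream, the long noncoding RNA gene AU019990 at chr2:132598195-132653068, lies on the same strand and ends 9174 bases before Rpl23a-ps4. It had 38.7, 37.1 and 23.6 FPKM in DRB, compared with 6.42, 5.75 and 8.56 FPKM in Con and rose as well (log2 fold change 2.09, limma adjusted p = 0.0154). Gpcpd1, the next gene on that side and on the other strand, had a log2 fold change of 0.55 and was not called (limma adjusted p = 0.320). The 2 downstream neighbours are processed pseudogenes at no more than 1.43 FPKM in any library. The neighbours were looked up after the values were seen, and the part of AU019990 in the values of Rpl23a-ps4 was not tested.

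**Figure D3:**
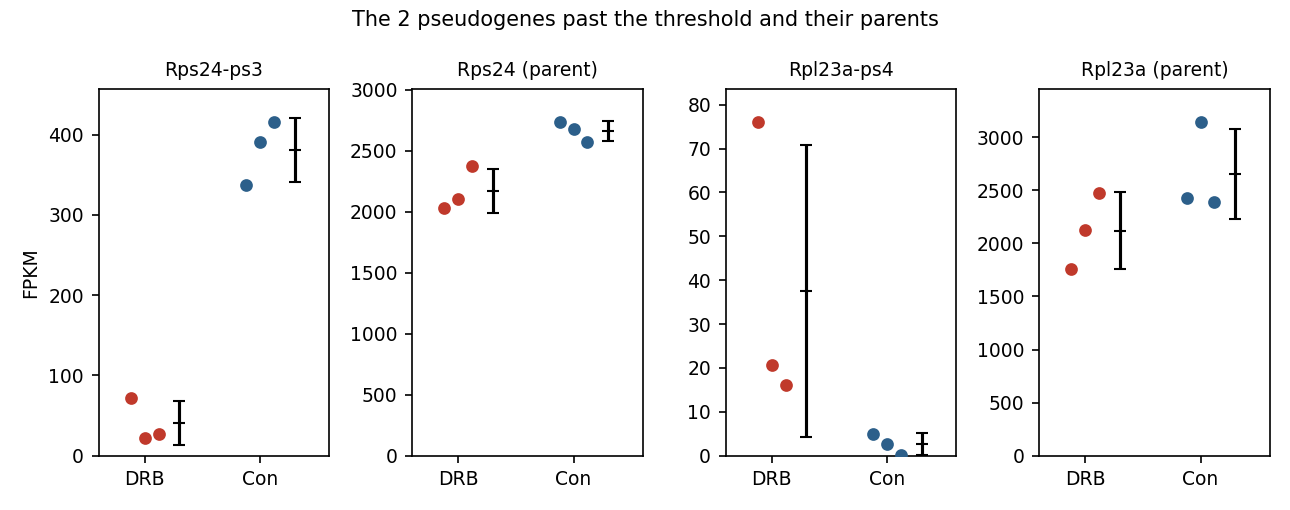
FPKM in each DRB library (red) and Con library (blue) for Rps24-ps3, Rps24, Rpl23a-ps4 and Rpl23a, each on its own linear axis from 0, with the mean and SD of each group in black. Rps24-ps3 is at 22.3 to 71.9 FPKM in DRB and 337.0 to 415.4 FPKM in Con, Rpl23a-ps4 at 16.2 to 76.0 FPKM in DRB and 0.16 to 5.03 FPKM in Con.

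Other members with large fold changes did not pass. Rps19-ps6 (chr12:110898114-110898551, plus strand), a copy of a small-subunit gene in an intron of Tecpr2, had 47.2, 150.6 and 181.5 FPKM in DRB, compared with 459.8, 346.7 and 267.7 FPKM in Con. The groups did not overlap, the log2 fold change was -1.67 (SE 0.45) and the limma adjusted p was 0.0812. Rps19 had 1379.9, 2688.0 and 2724.8 FPKM in DRB, compared with 5164.3, 3821.7 and 2782.6 FPKM in Con, which also did not overlap. Tecpr2 was under 1 FPKM in all 6 libraries, so the host's own level was below that of the pseudogene throughout.

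Rpl30-ps8 was near the minimum, at 0.31, 0 and 0.99 FPKM in DRB and 4.34, 2.75 and 1.84 FPKM in Con, with a log2 fold change of -1.48 (limma adjusted p = 0.101). It could enter only because all Con libraries were above 1 FPKM. Rpl30 had 1469.7, 1968.4 and 2207.2 FPKM in DRB and 2042.5, 2415.0 and 1739.8 FPKM in Con, and these groups overlapped. Rpl3-ps1 (chrX:13202571-13203780, plus strand), of which 5.47% of windows are its own, had 84.7, 41.7 and 81.8 FPKM in DRB, compared with 353.3, 161.5 and 99.9 FPKM in Con, with a log2 fold change of -1.42 (limma adjusted p = 0.124). Rpl3, with which it shares 80.4% of its windows, had 503.8, 307.7 and 327.2 FPKM in DRB, compared with 641.1, 585.4 and 593.7 FPKM in Con. Neither pair of groups overlapped.

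On the other side, Rpl23a-ps2, in an intron of Rabep1 on the same strand, had 4.96, 1.35 and 2.18 FPKM in DRB and 0, 0 and 2.01 FPKM in Con. Its log2 fold change was 1.30 (limma adjusted p = 0.235), the groups overlapped, and Rabep1 had 21.7 to 32.5 FPKM in DRB and 19.5 to 26.1 FPKM in Con. Rps2-ps13 had 219.1, 219.7 and 234.6 FPKM in DRB and 254.9, 361.5 and 21.5 FPKM in Con. Its log2 fold change of 0.82 (limma adjusted p = 0.650) came from the single low value of Con replicate 3, without which it was -0.43. Rpl17-ps5, in an intron of 6030443J06Rik, had 34.1, 33.1 and 91.4 FPKM in DRB and 7.88, 60.5 and 42.3 FPKM in Con, with a log2 fold change of 0.74 (limma adjusted p = 0.606). Without Con replicate 1, the lowest of its libraries, it was -0.10.

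The parents as a group were listed lower in DRB, with no call. Of the 46 parent genes, 0 passed the adjusted threshold in limma, beside 2.48% of all tested genes. An unadjusted p below 0.05 was reached by 6 parents, beside 18.1% of all tested genes. In 44 parents the log2 fold change was below 0, beside 56.0% of all tested genes. Their median log2 fold change was -0.37, against -0.09 over all tested genes, and every DRB library was below every Con library in 14 of 46, beside 13.9% of all genes. In the whole list of 79 ribosomal protein genes, all tested, 0 were called, 10 had an unadjusted p below 0.05 and 75 were below 0, and the 33 genes with no member had the same median of -0.37. Within-group SDs of log2(FPKM + 1) had a median of 0.28 for the parents, 0.45 for the members and 0.48 for all tested genes.

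Over the members the median shift was smaller than over their parents. Of the 116, 79 had a log2 fold change below 0 and 37 above, with a median of -0.18. Every DRB library was below every Con library in 22 members, against 13.9% of all tested genes, and above in 1 member, Rpl23a-ps4, against 9.85% of all genes. The 22 include Rpl30-ps8, which met the minimum in the Con libraries alone. The values differed with the windows. In the 29 members with every window their own, 13 were below 0 and the median was 0.06. In the 68 with some windows of their own, 52 were below 0 and the median was -0.20. In the 19 with none, 14 were below 0 and the median was -0.48, near that of the parents. The classes also differed in level, with a median mean level of 4.34, 8.11 and 198.5 FPKM in the same order. Fold changes on the log2(FPKM + 1) scale understate those of low genes, and the part of level in these medians was not tested. These classes are described and not tested, since members share parents and fragments.

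The scaling of the libraries moved these medians together. The median over all tested genes was -0.09 as deposited, 0.00 after median-of-ratios scaling and 0.03 with the mitochondrial genes left out. Relative to it, the 3 classes stood at 0.15, -0.10 and -0.38 as deposited, at 0.15, -0.10 and -0.36 after median-of-ratios scaling, and at 0.16, -0.10 and -0.36 without mitochondrial genes, and the parents at -0.27, -0.25 and -0.24. The number of members below 0 was 67 of 113 and 65 of 116 under the other 2 scalings, and of parents 41 and 38 of 46. Of all tested genes, 49.9% and 48.0% were below 0 under these scalings, against 56.0% as deposited.

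**Figure D4:**
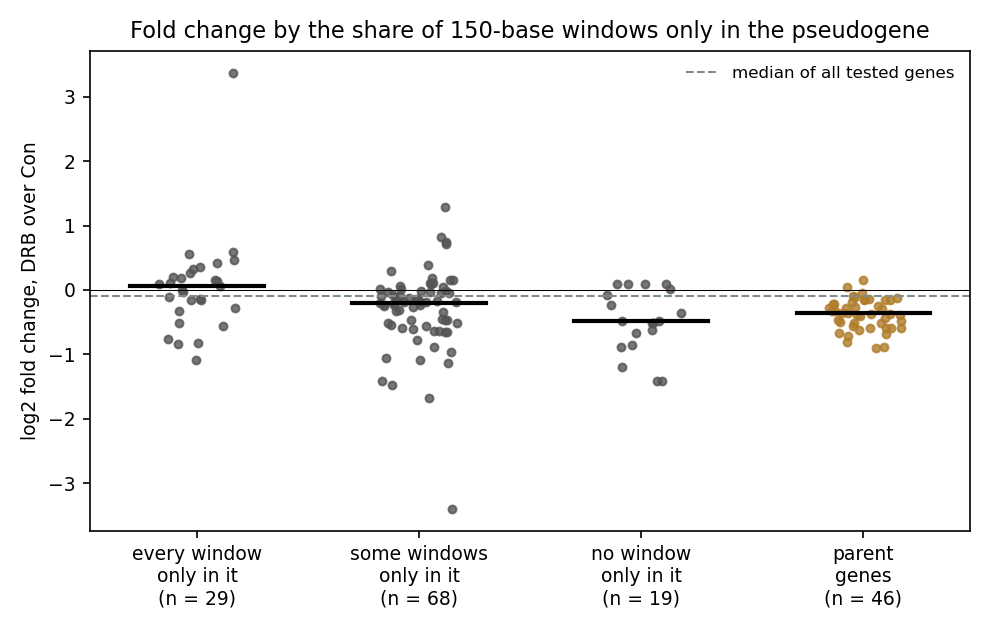
Log2 fold change, DRB over Con, for members with every, some or no 150-base window of their own (29, 68 and 19) and for the 46 parent genes. Each point is a gene, spread sideways at random, the black bar is the class median, and the dashed line is the median of all tested genes at -0.09. The medians are 0.06, -0.20, -0.48 and -0.37. The 3 classes of members also differ in level, with a median mean level of 4.34, 8.11 and 198.5 FPKM.

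Set against its own parent, the pseudogene minus parent difference was above 0 in 72 of 116 pairs, with a median of 0.15. Over all 199 pairs, members included, 55.3% were above 0 and the median was 0.09. Of the 83 pairs outside the name pattern, which include copies of Rpsa, 38 were above 0, with a median of -0.08. The members' median depended on the minimum: at 5 FPKM it was -0.003 over 69 member pairs. The difference was higher in every DRB library in 10 members and lower in 4, beside 9.55% and 4.02% of all pairs. One member pair, Rps24-ps3, was called in limma, and 9 of 116 had an unadjusted p below 0.05, beside 16 of all 199 pairs. Rpl30-ps8, which met the minimum in the Con libraries alone, is among these 9 and among the 4 with a lower difference. In members with every window their own the difference was above 0 in 22 of 29, and in those with none in 7 of 19. Rps15a-ps7 and Rpl36-ps2, copies of a small-subunit and a large-subunit gene, followed Rpl23a-ps4 and Rpl30-ps8 in the order of p among the members, with differences of 0.63 and 0.73, each with a limma adjusted p of 0.248. Both were named after their values were seen.

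**Figure D5:**
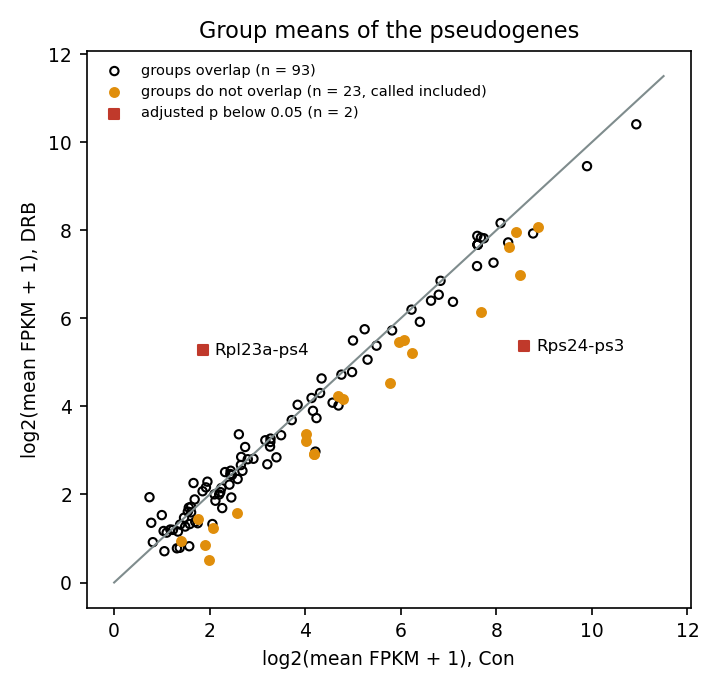
Mean of the 3 DRB libraries against the mean of the 3 Con libraries, as log2(mean FPKM + 1), for the 116 pseudogenes, with the line of equality. Open circles are the 93 members whose groups overlap, orange points those whose groups do not, and red squares the 2 with an adjusted p below 0.05, Rps24-ps3 below the line and Rpl23a-ps4 above it.

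By subunit and position the median fold changes lay close together. The median log2 fold change was -0.19 for the 70 copies of large-subunit genes and -0.13 for the 46 copies of small-subunit genes, -0.19 for the 46 members inside another gene and -0.17 for the 70 outside, and -0.23 for members with a full reading frame. Members with an earlier stop had a median of -0.02, with 11 of 22 below 0. Their median share of own windows was 98.2%, against 43.3% for those with a full frame. Their level was lower too, with a median mean level of 5.64 FPKM against 19.4 FPKM. Of the 46 hosts, 23 met the minimum and 1 was called, beside 2.48% of all tested genes. This host, Ddah1, an enzyme that breaks down methylated arginine, had 4.55, 8.58 and 3.51 FPKM in DRB, compared with 29.3, 32.9 and 37.0 FPKM in Con (log2 fold change -2.45, limma adjusted p = 0.0104). Rpl36a-ps2 lies in its intron on the same strand at chr3:145879020-145879340 and has no window of its own. It had 154.6, 130.9 and 172.1 FPKM in DRB and 339.5, 164.3 and 230.1 FPKM in Con, overlapping groups with a limma adjusted p of 0.308. This pair was named because its host was called. The libraries do not mark strand, so reads of a pseudogene and of an overlapping host on either strand cannot be told apart.

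At the edge of the rule, Rps13-ps5 and Rpl22-ps1 were the weakest members. Rps13-ps5 had 1.70, 0.88 and 1.00 FPKM in DRB and 1.90, 0.64 and 0.89 FPKM in Con, and Rpl22-ps1 had 0.56, 1.18 and 0.17 FPKM in DRB and 1.04, 1.77 and 0.41 FPKM in Con. Just outside were Rpl3-ps2, at 1.01, 0.35 and 0.52 FPKM in DRB and 0.83, 0.32 and 1.01 FPKM in Con, and Rpl29-ps5, at 0.76, 0.46 and 0.95 FPKM in DRB and 0.54, 0.75 and 0.33 FPKM in Con. Members and other rows thus meet without a gap at about 1 FPKM.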

How the data were processed

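RNA was measured in 6 libraries of 4-cell mouse embryos, 3 DRB and 3 Con. Per the labels' protocols, complementary DNA was made from polyadenylated RNA with oligo-dT priming by Smart-Seq2, a protocol that does not mark strand, and sequenced in pairs of 150-base reads. Per the submitters' processing notes, cutadapt 1.16, STAR and the mm10 build were used; the program that computed the values deposited by the authors as FPKM, and its handling of reads with several matches, are named in no source used here. The files hold 55335 rows each and no counts. The depth was estimated from the steps between low values, with an effective gene length 160 bases short of the annotated one.

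Testing was done on log2(FPKM + 1), for genes that reached 1 FPKM in 3 or more libraries, by limma 3.58.1 under R 4.3.3 (group only, mean-variance trend, Benjamini-Hochberg adjustment over all tested genes or all pairs, threshold 0.05); fold changes on this scale understate those of low genes. The script was tested on simulated data. Sequences and annotation are those of GENCODE M21, whose GRCm38 assembly is mm10; alignments to the parents' protein-coding transcripts were local, with biopython 1.88 (match 2, mismatch -3, gap opening -5, extension -2). The members and lists were chosen with earlier results of these data known. Named were the called members, the 8 with the highest mean FPKM, the 4 highest and 4 lowest log2 fold changes, the 4 highest levels relative to the parent, and the 2 rows on either side of the minimum, with parents and hosts. Some rows are not reported here.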

Additional observations from a re-analysis of the deposited data

Results flagged for a closer look

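Among the 181 rows outside the rule, 4 were at 0 in every Con library and reached 1 FPKM in a DRB library, among them Rpl30-ps9, Rpl31-ps6 and Rpl31-ps3, each of which did so in DRB replicate 3 alone. Rpl30-ps9, a copy of Rpl30 on the X chromosome with 3.57% of its windows to itself, was listed at 100.11 FPKM there, about 461 fragments, and at 0 in the other 5 libraries. It shares 48.98% of its windows with Rpl30. In all, 5 other genes share a window with it, among them Rpl30, Rpl30-ps1, Rpl30-ps8 and Rpl30-ps10. In DRB replicate 3, Rpl30 was listed at 2207.2 FPKM, Rpl30-ps10 at 296.1 FPKM and Rpl30-ps1 at 2.38 FPKM, with Rpl30-ps8 lower still. Their part in the value of Rpl30-ps9 was not tested. Rpl31-ps6 reached 2.5 FPKM and Rpl31-ps3 1.65 FPKM in the same library. In the other direction, 1 row was at 0 in every DRB library and reached 1 FPKM in a Con library: Rpl10a-ps2, at 0.09, 0.36 and 1.42 FPKM in Con. A difference between the groups was not tested for these rows, which did not meet the minimum.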

How the results depend on the processing

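Rps24-ps3 stayed lower in DRB under all 13 alternatives, with log2 fold changes of -3.91 to -3.09, and was called in 12; with no filter on low values, which raises the tested genes to 27554, its limma adjusted p was 0.123. Rpl23a-ps4 stayed higher, at 2.70 to 4.26, and was called in 8 of 13, with adjusted p-values up to 0.290. The 2 called members became 1 at a pseudocount of 0.1 and 0 unfiltered, and were 1 to 2 in the fits without 1 library. The called parents were 0 in every alternative run. The called member pair became 0 with no filter and was 0 to 1 without 1 library. Over all genes, the 295 calls became 164 at a pseudocount of 0.1, 6 unfiltered, 171 with the replicate block and 47 to 220 without 1 library (47, 151 and 220 without DRB replicates 1 to 3, 148, 110 and 106 without Con replicates 1 to 3). A minimum of 5 FPKM left 69 members, a minimum of 1 FPKM in all 6 libraries 87, and identical sequences counted once 112; the last, leaving out transcripts under 200 bases and the scalings of the pair test were chosen after seeing the data.

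Libraries of the same number did not deviate together (correlations of -0.047, 0.053 and -0.051), and 2 of 6 libraries correlated best with their own number. With the replicate block, 2 members were called, as without it, the Rps24-ps3 pair was lost (adjusted p = 0.142) and the Rpl23a-ps4 pair was gained (adjusted p = 0.0251). Without counts in the files, intervals for counting error cannot be given, and values near 1 FPKM rest on few fragments.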
